A study of Mus musculus with 5 samples.

Results

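H3K27me3 was examined at 9 genes of the Hedgehog pathway in cultured dermal fibroblasts of wild-type mouse embryos. The genes were Shh, Ihh, Dhh, Ptch1, Smo, Hhip, Gli1, Gli2 and Gli3, taken by name from 55450 annotated genes, of which 21951 were protein-coding. The peak lists of 4 ChIP-seq libraries were compared, 2 labelled E14 and 2 labelled E17, from the day of embryonic development. The methods of the work place both stages later than the labels do, most of all the second, and the names in the labels are used here. All 4 libraries came from dermal cells of unmodified wild-type skin that were expanded in culture before the assay, so they show the mark in cultured cells. Nothing in the sources used here says that the replicates came from separate litters, so the spread between replicates may be technical. The lists held between 7107 and 21546 peaks, and both E17 lists were shorter than both E14 lists. The peak lists hold no reads, so the depth of the single libraries could not be counted. The methods of the work describe thinning of wild-type and knockout libraries of the later stage to the depth of the other samples. Whether the E17 libraries used here were among those thinned is not clear from the methods.

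Hedgehog proteins are secreted ligands that bind the receptor Ptch1. Without ligand, Ptch1 holds the membrane protein Smo inactive, and when ligand is bound, Smo signals through the primary cilium to the Gli transcription factors. Gli2 and Gli3 carry the first response, while Gli1, Ptch1 and the ligand-trapping protein Hhip are themselves switched on by the pathway and are used as readouts of it. In developing skin, Shh is made by the epithelium of the hair follicle and is received by the dermal cells beneath it, including those of the dermal papilla. H3K27me3 is laid down by Polycomb complexes over silent developmental genes, often across the whole of a short gene and its flanks.

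A gene was called marked at a stage when a peak in each of the 2 libraries lay within 3000 bp of any of its start sites. By this rule, 6 of the 9 genes were marked at E14, namely Shh, Ihh, Dhh, Ptch1, Gli1 and Hhip, where 19.5% of protein-coding genes were marked. At E17, 5 of the 9 were marked, against 12.2% of protein-coding genes. These 5, which are the 3 ligands, Ptch1 and Gli1, were marked in all 4 libraries, as were 12.0% of protein-coding genes. No member had a peak in both E14 libraries and neither E17 library, a pattern that 4.62% of protein-coding genes showed, and none had the opposite pattern, which 0.0911% showed. The remaining 3 members, Smo, Gli2 and Gli3, were free of peaks around their start sites in all 4 lists, as were 74.1% of protein-coding genes. They had none in the gene body either, as was so for 76.4%, while the 5 members had a gene-body peak in all 4 libraries, as did 11.8%.

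**Figure D1:**
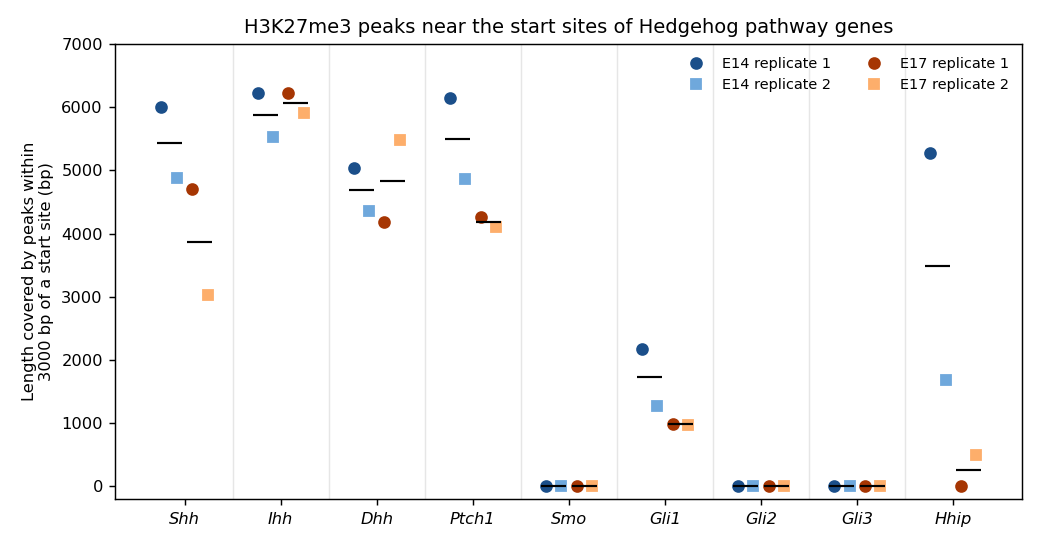
Length covered by H3K27me3 peaks within 3000 bp of the start sites (y axis, bp) for each of the 9 genes (x axis) in the 4 libraries. Points are single libraries and black bars are the means of the 2 libraries of a stage. Shh, Ihh, Dhh, Ptch1 and Gli1 lie above 0 in every library, Hhip is at 0 in E17 replicate 1, and Smo, Gli2 and Gli3 are at 0 throughout.

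The 3 ligand genes carried the mark over most of the gene body in every library. Shh (chromosome 5 from 28456815 to 28467256, minus strand, GRCm38) was covered from end to end in every library, which was true of 0.724% of protein-coding genes. A single peak spanned it, 15228 and 13497 bp wide at E14 and 12869 and 11195 bp wide at E17. The 3′ edge of this peak varied little, between 11162 and 11621 bp downstream of the start site. Its 5′ edge varied more, at 3618 and 1875 bp upstream of the start at E14 and 1706 and 23 bp upstream at E17. The replicates of each stage thus lay further apart than E14 replicate 2 and E17 replicate 1 did. Around the start, in a window of 3000 bp to either side, the covered length was 6001 and 4876 bp at E14 and 4707 and 3024 bp at E17, so both E17 values were below both E14 values, the first of which is the whole window. The means were 5438.5 ± 795 bp and 3865.5 ± 1190 bp (SD, n = 2; exact permutation test, two-sided, p = 0.333). This p is the smallest that 2 libraries against 2 can give, since the test has 3 splits, and no gene can therefore pass a threshold of 0.05 here. In these mixed populations, fewer cells with the mark and less of the mark per cell cannot be told apart.

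Ihh (chromosome 1 from 74945315 to 74951672, minus strand), which is best known from cartilage, lay within a longer chain of peaks. In E14 replicate 1 a single peak of 34396 bp reached from 10201 bp upstream of the start to 24194 bp downstream and ran into the neighbouring gene Cfap65. In E14 replicate 2 the same stretch was broken into shorter peaks, one of 5995 bp from 572 bp downstream of the start and one of 7284 bp upstream of it that ended 129 bp short of the start. At E17 a peak of 11338 bp in replicate 1 and of 6499 bp in replicate 2 covered the start. Near the start sites Ihh did not separate the stages, with 6231 and 5531 bp covered at E14 and 6231 and 5911 bp at E17 (exact permutation test, two-sided, p = 1.0). The value of 6231 bp is the whole window, so a further difference could not show there. In the gene body, coverage was 100% and 91.0% at E14 and 66.8% and 60.1% at E17, and the part free of peaks at E17 was the 3′ end with the last exon.

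Dhh (chromosome 15 from 98891152 to 98898540, minus strand), a ligand of Schwann cells and gonads, had a peak over its start site in all 4 libraries. This peak reached into all 3 exons and measured 7186 and 6453 bp at E14 and 5931 and 7497 bp at E17. The covered length near the start sites was 5031 and 4355 bp at E14 and 4180 and 5476 bp at E17, so the stages overlapped (exact permutation test, two-sided, p = 1.0). Of the bases covered in both E14 libraries there, 4355 bp in all, 4180 bp were covered in all 4 libraries. In every library the same peak reached into Rhebl1, which overlaps the 3′ part of Dhh on the same strand, so it cannot be assigned to Dhh alone.

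**Figure D2:**
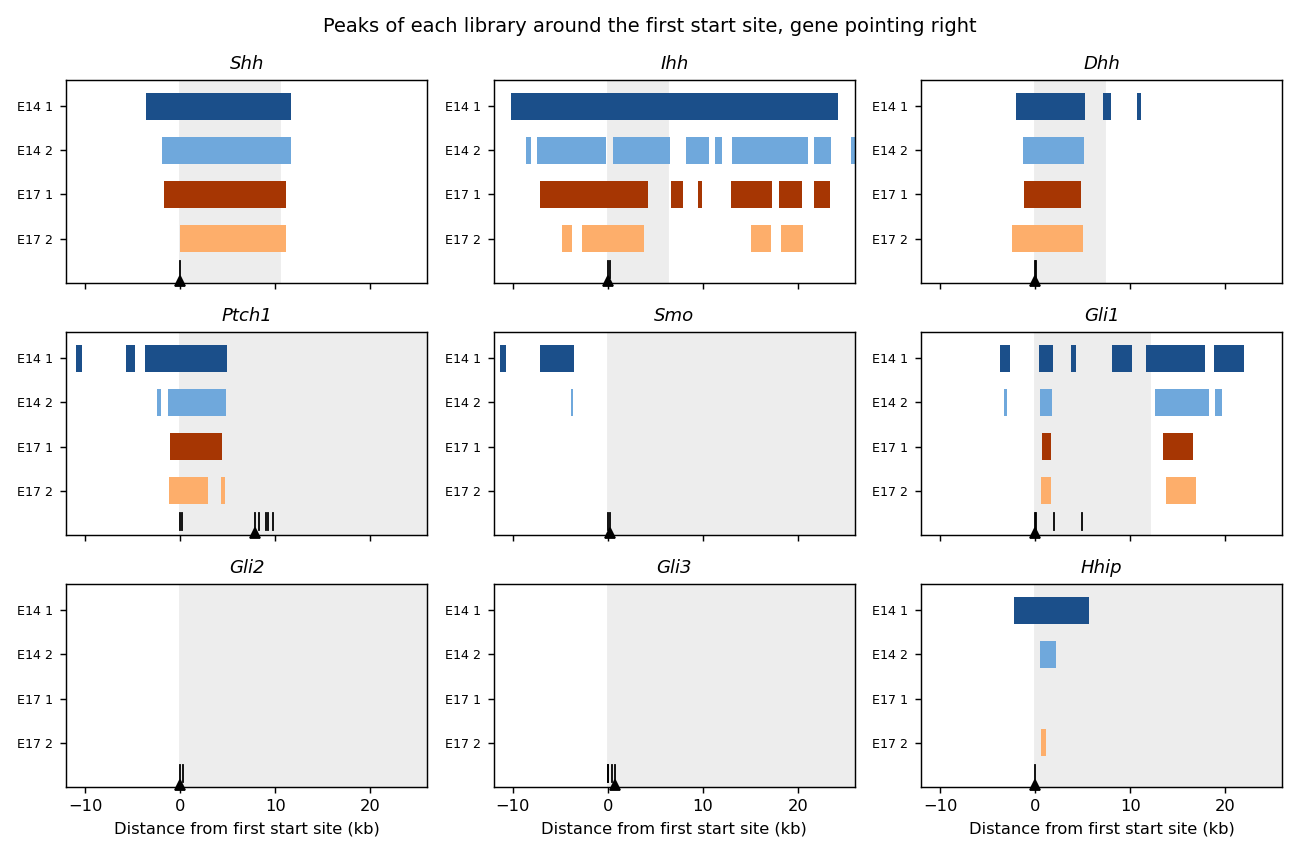
Position of the peaks of each library (rows) relative to the first annotated start site (x axis, kb, with the gene pointing right). Grey marks the gene body, black ticks the annotated start sites and the triangle the start of the principal transcript. At Ptch1 the peaks lie over the first start sites and end before the triangle, at Gli1 a narrow peak lies just after the start in every library, and Gli2 and Gli3 are empty in the stretch shown.

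Ptch1 (chromosome 13 from 63508328 to 63573598, minus strand) encodes the Hedgehog receptor and is a target of the pathway. It has 10 annotated start sites, and the mark was over the first 2 of them. The peak over the first start site was 8610 and 6101 bp wide at E14 and 5516 and 4106 bp wide at E17. It began between 3741 and 1122 bp upstream and ended between 2951 and 4868 bp downstream of that site. The start of the principal transcript lies 7863 bp downstream of the first. The nearest peak was 2995 and 3001 bp away from it at E14 and 3470 and 3152 bp away at E17, so no library had a peak over it. None of the peaks overlapped an exon of that transcript. The call at Ptch1 thus rests on the upstream start sites, and with the principal start sites alone, a setting chosen after seeing the data, 5 members were marked at E14 and 4 at E17. The shares given for protein-coding genes count any start site and are no background for these counts. The covered length near the start sites was 6145 and 4859 bp at E14 and 4261 and 4106 bp at E17 (means 5502 ± 909 and 4183.5 ± 110 bp, SD, n = 2; exact permutation test, two-sided, p = 0.333). Both E17 values were below both E14 values. Within 3000 bp of the start sites, 566 bp were covered in both E14 libraries and neither E17 library, all upstream of the first start site. Further into the gene, mostly outside these windows, peaks reached 4868 and 4862 bp downstream at E14. At E17 they reached 4393 bp in replicate 1 and, with a separate peak of 455 bp, 4711 bp in replicate 2.

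The marked part of Ptch1 holds the sequence GACCACCCA, the consensus bound by Gli proteins. It is the only exact match, on either strand, within 3000 bp of the first start site of any of the 9 genes, and 4.91% of 21938 protein-coding genes have a match in a window of that length. The match begins 125 bp downstream of the first start site and lies just upstream of the second, on the strand of the gene, and it was under a peak in all 4 libraries. It is shown because it places the mark on the upstream promoter, with the motif in capitals, from chr13:63573455-63573483 (GRCm38, minus strand).
Ptch1 upstream promoter: tggcgcggcaGACCACCCAcgccgagggc
A match describes these letters only and does not show binding.

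Hhip (chromosome 8 from 79965851 to 80058006, minus strand), which binds and sequesters the ligands, had the lowest-ranked peaks of the 6 marked genes. In E14 replicate 1, the start lay in a peak 7893 bp wide, from 2275 bp upstream to 5617 bp downstream. E14 replicate 2 had a peak of 1687 bp that began 490 bp downstream of the start, and E17 replicate 2 one of 500 bp that began 630 bp downstream. E17 replicate 1 had no peak in the gene, and its nearest one to the start was 234136 bp away. The covered length was 5276 and 1687 bp at E14 and 0 and 500 bp at E17 (means 3481.5 ± 2540 and 250 ± 354 bp, SD, n = 2; exact permutation test, two-sided, p = 0.333). The E14 libraries thus differed from each other by more than the lower of them differed from E17. The peaks of E14 replicate 2 and E17 replicate 2 stood near the threshold of the lists, a q-value of 0.01, with a −log10 q-value of 2.42 and 2.58, and that of E14 replicate 1 stood higher, at 4.96. When peaks with a −log10 q-value under 3 were left out, Hhip kept only the peak of E14 replicate 1.

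Gli1 (chromosome 10 from 127329882 to 127341974, minus strand) is the transcription factor most widely used as a readout of the pathway, and its mark was narrow. The strongest peak near the start was 1401 and 1253 bp wide at E14 and 988 and 974 bp wide at E17. It began 422 and 483 bp downstream of the first start site at E14 and 692 and 661 bp downstream at E17, so the start itself was outside it in all 4 libraries. At E14 the peak lay in introns 1 and 2 and over all of exon 2 of the principal transcript. At E17 it began within exon 2 and ran into intron 2. Of its bases, 943 were common to all 4 libraries, from 692 to 1634 bp downstream of the start. By fold enrichment, with no account taken of width, this peak was among the highest-ranked at E14. Its fold enrichment was 8.82 in replicate 1 and 7.95 in replicate 2, the 44th of 21546 and the 123rd of 16574 peaks in those lists. At E17 it was 4.67 and 4.05, at rank 715 of 10429 and 2139 of 7107. Fold enrichment depends on the background of each library and is compared here only as a rank. E14 replicate 1 had further peaks of 461, 1041, 2114 and 6236 bp in or next to the gene. E14 replicate 2 had a further peak of 247 bp upstream of the start, within the span of the 1041 bp peak. The covered length near the start sites was 2179 and 1268 bp at E14 and 988 and 974 bp at E17 (means 1723.5 ± 644 and 981 ± 9.9 bp, SD, n = 2; exact permutation test, two-sided, p = 0.333).
At the 3′ end of Gli1, over the convergent gene Arhgap9, every library had a second high peak, which in E14 replicate 1 reached into the last exon of Gli1. It was 6236 and 5725 bp wide at E14 and 3173 and 3089 bp wide at E17. By fold enrichment it stood at percentile 99.5 and 99.3 of the E14 lists and at 95.9 and 95.7 of the E17 lists, the last above the 69.9 of the Gli1 start peak in the same library.

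Smo, Gli2 and Gli3, which carry the signal from the receptor to the nucleus, were free of peaks. At Smo (chromosome 6 from 29735503 to 29761365, plus strand), the nearest peak to a start site was 3492 and 3602 bp away at E14, just outside the window. At E17 it was 41977 and 40759 bp away. In the 16.9 kb between Smo and the upstream gene Tspan33, the E14 lists had 4 and 3 peaks that covered 7545 and 3411 bp, and the E17 lists had none. With a window of 5000 bp, Smo counted as marked at E14 and in neither E17 library.
At Gli2 (chromosome 1 from 118834132 to 119053619, minus strand), the nearest peak was 22912 and 23264 bp from a start site at E14 and 353367 and 352495 bp at E17. At Gli3 (chromosome 13 from 15463235 to 15730026, plus strand), the nearest peak was 864426 and 864610 bp from a start site at E14 and 939646 and 947951 bp at E17. The 789 kb upstream and the 282 kb downstream of Gli3, up to the next protein-coding genes Psma2 and Inhba, held no peak in any list. None of their length was covered, which for Gli3 is 266792 bp.

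The peaks were also compared by their rank within each list, as the percentile of fold enrichment of the strongest peak near a start site. The ranks took no account of the width of a peak. For the 5 genes marked in all 4 libraries, this was between 94.0 and 99.8 in E14 replicate 1 and between 95.5 and 99.3 in E14 replicate 2. It was between 93.2 and 96.5 in E17 replicate 1 and between 69.9 and 91.9 in E17 replicate 2. The median over the 2645 protein-coding genes marked in all 4 libraries was 93.3, 90.7, 84.0 and 74.6 in the same order. All 5 genes were above that median in each library, except Gli1 in E17 replicate 2. Hhip, at 77.7, 16.6 and 28.1 where it had a peak, was below it.
Among the 6 members marked at E14, the covered length was lower in both E17 libraries than in both E14 libraries at 4, namely Shh, Ptch1, Gli1 and Hhip. Of the 4270 protein-coding genes marked at E14, 84.2% showed this. The covered length at E17 as a percent of that at E14 had a median of 73.5% over these 6 members and of 41.8% over the 4270 genes. It ran from 7.18% at Hhip and 56.9% at Gli1 to 103% at Ihh and Dhh. Among the genes marked in all 4 libraries the median was 62.2%. As these members were chosen by name with the lists already known, the values describe them and were not tested as a group.

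**Figure D3:**
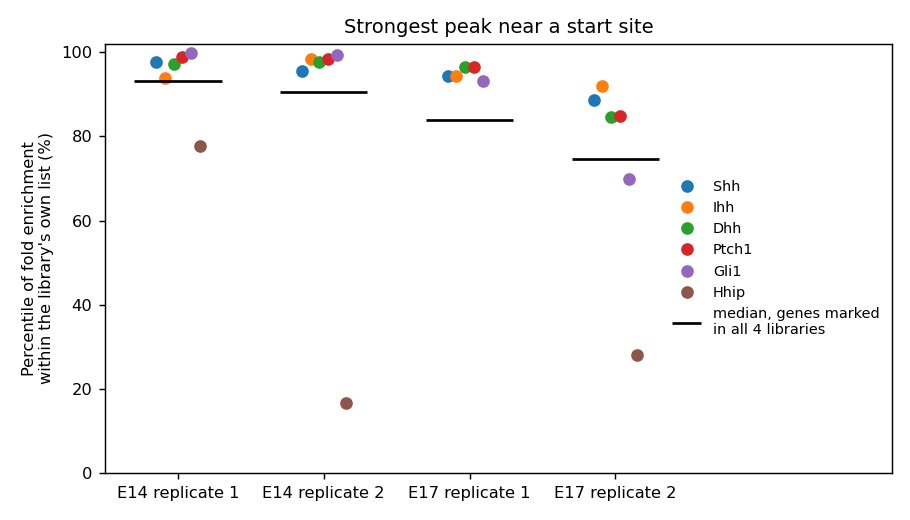
Percentile of fold enrichment, within the library's own list (y axis, %), of the strongest peak near a start site of 6 Hedgehog genes in each library (x axis). Black bars are the medians of the 2645 protein-coding genes marked in all 4 libraries. Shh, Ihh, Dhh and Ptch1 lie above the bar in each library, Gli1 lies above it in all but E17 replicate 2, and Hhip, which has no point in E17 replicate 1, lies below it.

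CpG-rich promoters are the usual sites of H3K27me3, and marked and unmarked members both had them. RefSeq promoters (GRCm38.p6) were at hand for 7 of the 9 genes, all but Shh and Gli1. In the 250 bases before the start, protein-coding promoters had a median of 10 CpG. Among the members without a peak over these bases in any library, the principal promoter of Ptch1 had 41, Gli3 34, Gli2 22 and Smo 15. Among those with a peak there, Hhip had 28, Ihh 24 and Dhh 9. The 250 bases were under peaks in full at Dhh in all 4 libraries, at Ihh in all but E14 replicate 2, where 122 were, and at Hhip in E14 replicate 1 only. Promoters are shown for a ligand with the mark in every library, for Hhip, for the unmarked principal promoter of Ptch1 and for the unmarked Gli2, each 5′ to 3′ on the minus strand with every CpG in capitals, from chr1:74951673-74951922, chr8:80058009-80058258, chr13:63565736-63565985 and chr1:119053620-119053869.
Ihh: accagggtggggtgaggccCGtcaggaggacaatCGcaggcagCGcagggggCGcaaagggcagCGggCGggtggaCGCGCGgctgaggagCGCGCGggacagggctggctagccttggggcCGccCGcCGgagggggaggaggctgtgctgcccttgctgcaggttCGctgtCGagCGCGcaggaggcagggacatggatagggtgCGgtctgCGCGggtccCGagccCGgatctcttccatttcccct
Hhip: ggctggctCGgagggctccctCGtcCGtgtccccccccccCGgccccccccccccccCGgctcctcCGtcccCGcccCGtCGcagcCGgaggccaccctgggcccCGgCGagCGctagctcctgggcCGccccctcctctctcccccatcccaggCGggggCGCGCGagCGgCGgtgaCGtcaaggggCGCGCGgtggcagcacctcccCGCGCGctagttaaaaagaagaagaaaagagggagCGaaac
Ptch1 principal promoter: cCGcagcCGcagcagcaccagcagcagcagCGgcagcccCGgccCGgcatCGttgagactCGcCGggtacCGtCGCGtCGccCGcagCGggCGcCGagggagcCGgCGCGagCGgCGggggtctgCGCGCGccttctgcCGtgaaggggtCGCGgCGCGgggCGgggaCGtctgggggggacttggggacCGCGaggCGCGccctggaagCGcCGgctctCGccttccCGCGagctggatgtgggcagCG
Gli2: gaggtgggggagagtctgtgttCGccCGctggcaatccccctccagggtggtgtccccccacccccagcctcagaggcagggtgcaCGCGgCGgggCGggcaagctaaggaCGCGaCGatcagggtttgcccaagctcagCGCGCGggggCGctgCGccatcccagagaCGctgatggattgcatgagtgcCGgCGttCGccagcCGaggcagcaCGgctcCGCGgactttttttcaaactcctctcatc
The unmarked promoter of Ptch1 thus held more CpG than either of the marked ones shown, and that of Gli2 fewer. In the 6001 bp around the first start site, the number of CpG was 258 at Gli3, 192 at Gli2 and 171 at Smo, against 205 at Shh, 253 at Ihh, 174 at Gli1, 153 at Ptch1, 131 at Dhh and 128 at Hhip. The medians were 149 for protein-coding genes marked in all 4 libraries and 100 for those without a peak.

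A wider list of 55 genes of the pathway, its targets in various tissues and relatives of the Gli factors was examined in 5 groups. Of these genes, 21 were marked at E14, 18 at E17 and 18 in all 4 libraries, where the shares of protein-coding genes were 19.5%, 12.2% and 12.0%. Of the 18 marked in all 4 libraries, 10 were targets in various tissues and 4 were relatives of the Gli factors, so the total mostly reflects these 2 groups. A further 29 of the 55 had no peak around a start site in any library, where the share was 74.1%. The groups differed in how many of their genes were marked, and these counts were not tested. Of the 20 genes of signal transduction and the cilium, which include the Gli-binding inhibitor Sufu, the kinesin Kif7 and the intraflagellar transport gene Ift88, none was marked at either stage. Of these, 18 had no peak in any library, while Arl13b had one of 1353 bp in E14 replicate 1 and Ift88 one of 267 bp in E17 replicate 1.
Of the 6 genes of ligand release, Scube1, Scube2 and Scube3, which encode secreted proteins that carry the lipid-modified ligand away from the cell, were marked in all 4 libraries. Scube3 had 10328 and 6321 bp covered at E14 and 6304 and 4346 bp at E17. Scube2 had 4539 and 4089 bp at E14 and 2501 and 1401 bp at E17, so that both E17 values were below both E14 values. Scube1 had 6062 and 4178 bp at E14 and 4731 and 3915 bp at E17, so that the stages overlapped. The acyltransferase Hhat and the release protein Disp1 had no peak.
Of the 6 receptors and co-receptors, Lrp2, an endocytic receptor, was marked in all 4 libraries, with 3428 and 2622 bp at E14 and 2789 and 3169 bp at E17. The co-receptors Boc, Cdon and Gas1 had no peak in any library.
Of 15 genes that the pathway switches on in one tissue or another, 10 were marked in all 4 libraries, namely Foxf1, Foxf2, Foxl1, Foxe1, Foxa2, Nkx2-1, Nkx2-2, Nkx6-1, Sox18 and Mycn. At Nkx2-1, Foxa2, Foxe1 and Nkx6-1, regulators of endoderm and neural tube, the whole window was covered in every library, at 7803, 7506, 6001 and 6001 bp, so no difference could show there. Nkx2-2, a neural tube target, had its whole window of 12306 bp covered in every library but E17 replicate 1, where it had 11862 bp. Mycn, a cell growth regulator named here after its values were seen, had 2069 and 2517 bp at E14 and 3893 and 2676 bp at E17, so that both E17 values were above both E14 values, as was the case for 0.328% of the protein-coding genes marked at E14. The target genes Ccnd1, Ccnd2, Bcl2 and Grem1 had no peak in any library.

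**Figure D4:**
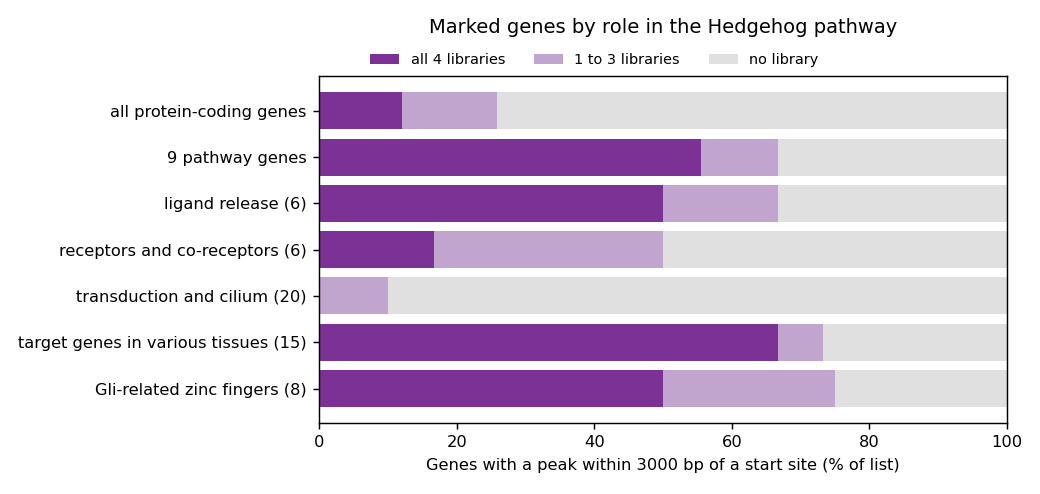
Share of genes (x axis, %) whose start sites have a peak inside 3000 bp in all 4 libraries, in 1 to 3 of them or in none, for all protein-coding genes, the 9 pathway genes and the 5 groups of the wider list, whose sizes are in brackets. All groups but transduction and the cilium hold a larger share of genes marked in all 4 libraries than the 12.0% of all protein-coding genes, the receptors with 1 of 6 genes, and the 20 genes of transduction and the cilium hold none.

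The label of the cells was checked against markers. All 8 genes of the dermal fibroblast list, among them Col1a1, Pdgfra and Twist2, lacked a peak around their start sites in every library, which was also so for 74.1% of protein-coding genes and so says little about the label. Epcam of the keratinocytes, Sox10 of melanocytes and Schwann cells and Myod1 of muscle were marked in all 4 libraries, and Myf5 of muscle in both E14 libraries alone. Mitf of melanocytes, the keratinocyte genes Krt5, Krt14, Krt15 and Trp63 and the 4 endothelial and immune genes had no peak. A peak list gives no expression, so the absence of a peak does not show that a gene was active.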

How the data were processed

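H3K27me3 ChIP-seq of 4 libraries was used, and the input library was not analysed here. Per the submitters' processing notes, the authors aligned reads to mm10 with Bowtie2 2.3.5.1, handled them with SAMtools 1.9 and called peaks with MACS2 2.2.7.1, separately per library. The methods give broad peaks and a q-value threshold of 0.01, and the control is not given in the sources used here. Each deposited peak has a fold enrichment (a ratio to the local background), a −log10 p-value, a −log10 q-value and a score made from the last. All last peaks lay within the GRCm38 chromosomes. The methods describe thinning of later-stage wild-type and knockout libraries to the depth of the other samples, and may not mean the E17 libraries used here. The lists hold no reads, so no precision could be given for a single peak. The labels (DMEM, sonication, Ion Torrent kit) and the methods (AmnioMAX, enzymatic kit, Illumina) differ.

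Start sites and gene bodies came from GENCODE vM21. An overlap of at least 1 bp with 3000 bp either side of any start site counted. Offsets are from the first (5′-most) start site. Covered lengths were compared by exact permutation over libraries, two-sided. The members and lists were chosen with earlier results of these data known. All 9 members are named. Of the wider list, the rule names genes marked in all 4 libraries or at a single stage, with values for up to 4 a group by mean covered length, ties included. Glis2, Glis3, Arhgap9, Mycn, Disp1, Hhat, Boc, Cdon, Gas1, Ccnd1, Ccnd2, Bcl2, Grem1, Arl13b, Ift88, Sufu and Kif7 were picked afterwards. Some genes of the wider list and a flanking interval are not reported here. On simulated data, with peaks planted wholly inside the windows of genes that stand apart, 100% of planted gene and library pairs (200 genes) were recovered. This checks the overlap count only and not the detection of peaks. Python 3.11.15, numpy 2.4.6 and pandas 2.3.3 were used. Alternatives were other windows, the gene body, stricter thresholds, wider peaks, lists of equal number, either replicate, the replicate block and leaving out each library.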

Additional observations from a re-analysis of the deposited data

How the results depend on the processing

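The 5 genes marked in all 4 libraries kept that call with a window of 1000 or 5000 bp, with at least 500 bp covered, with a −log10 q-value of at least 3 and with lists of 7107 top peaks each. With a −log10 q-value of at least 5 or peaks of at least 1000 bp, Gli1 was not among them, and 4 remained. The number marked at E14 and in neither E17 library, 0 in the report, was 1 with a window of 5000 bp (Smo) and 2 with peaks of at least 1000 bp (Gli1 and Hhip). Leaving out each library in turn, it ran from 0 to 1, the latter without E17 replicate 2 (Hhip). The shares of protein-coding genes given above belong to the main rule and are no background for these changed counts. By the main rule, 11.6% of all annotated genes were marked at E14 and 7.11% at E17.

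The difference in covered length, E14 mean minus E17 mean, kept its sign at Shh, Ptch1, Gli1 and Hhip wherever it was not 0. At Ihh it was -190 bp, but 2038 bp in the gene body and 1471 bp with a window of 5000 bp, and leaving out single libraries it ran from -540 to 160 bp, the latter without E14 replicate 2. At Dhh it was -135 bp, but 393.5 bp in the gene body, and leaving out single libraries it ran from -783 to 513 bp, with 203 bp without E14 replicate 2 and the highest value without E17 replicate 2. At Shh it ran from 731.5 bp without E17 replicate 2 to 2414.5 bp without E17 replicate 1, at Ptch1 from 675.5 bp without E14 replicate 1 to 1961.5 bp without E14 replicate 2 and at Gli1 from 287 to 1198 bp without the same libraries. At Hhip it ran from 1437 bp without E14 replicate 1 to 5026 bp without E14 replicate 2. At Ptch1 it fell from 1318.5 to 3 bp with the principal start site alone. The nearest peak lay between 2995 and 3470 bp from that site, so its window was almost empty in every library. The cause of the other shifts was not tested.

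With the replicate number as a block, the differences were the same (1573 bp at Shh, 742.5 bp at Gli1; exact sign-flip test, p = 0.5, the smallest that 2 pairs allow), and nothing in the labels ties the numbers to a shared litter or day. The depth of each library, which the lists do not give, limits what the absence of a peak can show.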

Other observations

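The relatives of the Gli factors and the intervals around the members were described last. Of 8 Gli-related zinc finger genes, 4 were marked in all 4 libraries, namely Zic1, Zic2, Zic4 and Zic5, which act in the neural tube and its derivatives. Zic2 had its whole window of 8666 bp covered in every library, the most that this measure allows. Zic4 had 25152 and 25152 bp at E14 and 17026 and 12647 bp at E17, and Zic1 had 8757 and 8757 bp at E14 and 6411 and 5062 bp at E17. Zic1 with Zic4 and Zic2 with Zic5 are neighbours, so their values are not independent. Zic5 had 11657 and 9821 bp at E14 and 8013 and 6501 bp at E17. Glis1 had a peak in both E14 libraries and in neither E17 library, and Glis2 and Glis3 had no peak.

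The 729 kb upstream of Shh, up to Rnf32, held no peak in any list other than the one that spans Shh.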
